A study of Mus musculus with 9 samples.

Results

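The 300 circRNA probes with the highest hybridisation signal in mouse intestinal tumours were examined, out of 14236 circRNA probes on the array. They were chosen as the 300 highest means, over all 9 arrays, of the log2 processed signal minus the 75th percentile of that signal over the circRNA probes of the same array. This scaled log2 signal is called the level below, and a level of 0 is a signal equal to that percentile. The arrays formed 3 groups of 3, titled CTR, HFD and HFD+Abx. The design text speaks of a high-fat diet, which HFD is read to mean, and Abx is an abbreviation left unexplained. CTR is taken as the control by its title only. All arrays carried RNA from tumours of the intestine that had been treated with RNase R, and the labels give no strain, age, diet composition, tumour model or duration for any group. Whether each array stands for its own animal is not stated, and a p-value here therefore reflects variation among the 9 samples, some of which may be technical.

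Circular RNAs are closed loops made when a downstream splice site is joined back to an upstream one. Because they have no free ends they withstand RNase R, which degrades linear RNA from its ends, and they tend to be long-lived in cells, where a small number of loops often makes up much of the circRNA pool. Array probes for circRNAs are usually laid across the back-splice junction. The files name each probe by an array ID and hold neither probe sequences nor host genes, so no sequence or gene is given for any of the 300. A probe's signal depends on how well it binds as well as on the amount of RNA, so the order of signals is not an order of RNA amounts, and "most abundant" holds here for signal only. The tissue label could not be checked, since none of the epithelial, stromal, muscle, endothelial, leukocyte or liver genes listed for that purpose was among the 44 named mRNA probes of the array.

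All 300 probes were well above background on all 9 arrays, and none of their 2700 spots was saturated. On each array the dimmest of them was 3.76 to 10.6 times as bright as the brightest of the 15 probes named as negative. Arrays of CTR and HFD and HFD+Abx 1 shared slide 1, whereas HFD+Abx 2 and 3 lay on slide 2, as read from the scan identifiers. The first number of each array's position code in the scanner header is called its position column below. Whether that number counts columns or rows of the slide is not known here. The number of circRNA probes well above background ran from 12544 on HFD+Abx 3 to 13478 on HFD+Abx 1.

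The 300 probes are 2.11% of the circRNA probes and held more than 58% of the summed circRNA signal on every array. Their share was 64.6%, 59.5% and 61.3% on CTR 1 to 3, 64.5%, 61.3% and 60.6% on HFD 1 to 3, and 58.9%, 62.6% and 63.5% on HFD+Abx 1 to 3. The group means were 61.8% ± 2.59 in CTR, 62.1% ± 2.11 in HFD and 61.7% ± 2.45 in HFD+Abx (SD, n = 3). The groups overlapped fully and their means lay closer together than the SD of any group, with CTR 1 and HFD 1 at the top and HFD+Abx 1 at the bottom. The next 300 probes held a mean of 10.2% ± 0.71 over the 9 arrays (SD, n = 9). The brightest probes made up 50% of an array's circRNA signal at a count of 113 (HFD+Abx 3) to 173 (HFD+Abx 1).

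Within the list the signal was concentrated at the top. The 10 brightest members held 12.5%, 13.4% and 15.2% on CTR 1 to 3, 14.7%, 15.4% and 13.7% on HFD 1 to 3, and 13.3%, 17.1% and 18.7% on HFD+Abx 1 to 3. The highest values were those of HFD+Abx 2 and 3, the arrays of slide 2, whereas HFD+Abx 1 on slide 1 lay among the CTR and HFD arrays. Slide and group cannot be told apart for these arrays. Members 11 to 100 held 28.7% ± 1.94 and members 101 to 300 held 18.3% ± 1.47 (SD, n = 9).

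The brightest member, ASCRP4006710, gave 140172, 129403 and 132864 signal units on CTR 1 to 3, 141190, 112453 and 128664 on HFD 1 to 3, and 130146, 201945 and 179379 on HFD+Abx 1 to 3. It ranked first on all 9 arrays and held 2.55% to 4.07% of the circRNA signal by itself. ASCRP4012684 came next on all 9 arrays, with 95744, 93607 and 102743 units in CTR, 107835, 88292 and 101433 in HFD, and 100647, 165577 and 157677 in HFD+Abx. Both were brightest on HFD+Abx 2 and 3, and HFD+Abx overlapped the other groups through HFD+Abx 1.

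The third, ASCRP4013042, ran from 57479 units on HFD 3 to 121718 on HFD+Abx 3 with a median of 69727. ASCRP4008132 ran from 48750 on HFD 2 to 96634 on HFD+Abx 3 (median 68675). ASCRP4006342 ran from 52593 on HFD 3 to 70056 on CTR 1 (median 60927). These 3 stood at ranks 3 to 5 on every array, so the first 5 places were taken by the same 5 probes throughout.

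The other members of the first 10 were ASCRP4007626, ASCRP4009692, ASCRP4011502, ASCRP4002727 and ASCRP4007660. Their median signals over the 9 arrays were 43001, 44604, 40711, 38813 and 38119 units, and none of them fell below rank 16 on any array. In all, 15 probes appeared in the first 10 of at least 1 array. Group differences of the first 10 ran from -0.12 to 0.40 in HFD vs CTR, from -0.26 to 0.31 in HFD+Abx vs HFD and from -0.07 to 0.44 in HFD+Abx vs CTR, on the log2 scale. The smallest adjusted p among them was 0.40 in limma.

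Mean levels of the 300 ran from 10.32 at rank 1 to 4.34 at rank 300, which is 5.98 log2 units or 63.0-fold. Of the 300, 15 had a mean level above 8 and 112 lay below 5. The lower edge was not a step. ASCRP4009276 and ASCRP4011638, the last to be included, had mean levels of 4.35 and 4.34, and ASCRP4010805 and ASCRP4007781, the first to be left out, had 4.33 and 4.32. These 4 probes were among an array's own 300 brightest on only 3, 4, 2 and 3 of the 9 arrays.

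The ranks were steady at the top and loose near the edge. Of the 300, 207 (69%) were among the 300 brightest probes on all 9 arrays. That held for 10 of 10 at ranks 1 to 10, 40 of 40 at ranks 11 to 50, 48 of 50 at ranks 51 to 100, 89 of 100 at ranks 101 to 200 and 20 of 100 at ranks 201 to 300. Single arrays had 266 (CTR 3) to 284 (HFD 2) of the members among their own 300 brightest. Pooled over arrays, 405 probes reached the 300 brightest of at least 1 array, and 105 of these were not members.

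Choice of the 300 on 8 arrays kept 296 to 298 of them, and 264 to 281 of the probes so chosen were among the 300 brightest of the array that had been left out. Only the counts of 264 to 281 used values that had no part in the choice. The 296 to 298 compare lists that have 8 arrays in common, so a large overlap was built in. Chosen on 1 group alone, the list shared 281 probes with the 300 for CTR, 293 for HFD and 284 for HFD+Abx. The arrays of each group had likewise helped to choose the 300. The lists of CTR and HFD shared 282, those of HFD and HFD+Abx 278, those of CTR and HFD+Abx 267, and 265 were common to the 3 groups.

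A few members left the list far behind on single arrays. Of the 300, 9 dropped below rank 500 on at least 1 array and 1 dropped below rank 1000. The median member moved over 79.5 places between its best and its lowest array. That distance was 3.5 places at ranks 1 to 10 and 147.5 at ranks 201 to 300.

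Arrays resembled each other across groups as much as within them. Rank correlations over the 300 members (Spearman, as a description, since the members share arrays and scaling) were 0.78 to 0.93 for the 9 pairs within a group and 0.72 to 0.97 for the 27 pairs between groups, with medians of 0.87 and 0.86. CTR 1 lay closest to HFD 1 (0.97), CTR 2 to HFD+Abx 1 (0.96), and HFD 3 to HFD+Abx 1 (0.96). The nearest array belonged to the same group for 1 of the 9 arrays, HFD 2, which lay closest to HFD 1 (0.93). CTR 1 and HFD+Abx 2 were farthest apart (0.72).

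Each member's mean over the 9 arrays was then subtracted. Over the 300 members these deviations correlated at r = 0.80 between CTR 1 and HFD 1 and at r = 0.80 between HFD 3 and HFD+Abx 1, where the other 13256 tested probes gave r = 0.34 and r = 0.27. CTR 2 and HFD+Abx 1, among the closest by rank, gave r = 0.52 and 0.12. The lowest correlation was that of CTR 3 and HFD+Abx 2 (r = -0.82, against -0.54 over the other probes), followed by CTR 1 and HFD+Abx 2 (r = -0.78, against -0.51). The 300 probes ranked just below the members gave r = 0.74 for CTR 1 and HFD 1, 0.61 for HFD 3 and HFD+Abx 1 and -0.81 for CTR 3 and HFD+Abx 2, so the pattern was not limited to the members. The pairs at r = 0.80 shared slide and position column, whereas CTR 2 and HFD+Abx 1 shared the slide only. CTR 1 and CTR 2 shared both and gave r = -0.12 over the members. Subtracting each member's mean makes such correlations negative on average, and their median over all 36 pairs was -0.17. The median was 0.07 for the 16 pairs in the same position column and -0.28 for the 20 in different columns. By slide it was -0.15 (same) and -0.23 (different), and by group -0.12 (same) and -0.18 (different). What lies behind these values was not tested.

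Members were often brightest on CTR 1. Of the 300, 107 (35.7%) had their highest level there, against 12.0% of the other tested probes. The share was 20.3% against 7.24% on HFD 3 and 18% against 13.9% on HFD+Abx 2. The lowest level fell on CTR 3 for 76 members (25.3% against 5.56%) and on HFD+Abx 3 for 62 (20.7% against 23.2%), so CTR 3 stood apart from the other probes' share and HFD+Abx 3 did not. The median level of the members was 5.91, 5.50 and 5.39 on CTR 1 to 3, 5.65, 5.30 and 5.62 on HFD 1 to 3, and 5.49, 5.48 and 5.29 on HFD+Abx 1 to 3. Whole arrays thus stood up to 0.62 log2 units apart in member levels, with high and low arrays in the same groups.

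The spread within groups was wider for the members than for most probes, and nearly as wide for the probes ranked next. The median SD within groups, pooled over the 3 groups, was 0.33 log2 units for the 300 and 0.25 for the other 13256 tested probes, and 225 of the 300 lay above the latter. By rank it was 0.24 at ranks 1 to 10, 0.29 at ranks 11 to 50, 0.34 at ranks 201 to 300, 0.31 for the 300 probes ranked next, 0.29 at ranks 601 to 1000 and 0.22 at ranks 3001 to 6000. The median range over the arrays was 1.93-fold for the members and 1.98-fold for the 300 probes ranked next. Between the highest and the lowest array, 128 members (42.7%) differed by 2-fold or more, against 33.7% of the other probes. For 24 members (8%) the range was 4-fold or more, against 3.68%. These are descriptions with no test. With quantile normalisation the median SD was 0.27 for the members and 0.24 for the other probes, and with normexp it was 0.35 and 0.10.

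The steadiest member was ASCRP4006650, at mean rank 116, with levels of 5.87, 5.82 and 5.83 in CTR, 5.87, 5.88 and 5.72 in HFD, and 5.66, 5.80 and 5.90 in HFD+Abx. Its pooled SD was 0.09. ASCRP4004366 and ASCRP4012979 followed, at mean ranks 128 and 57, with pooled SDs of 0.12 and 0.13.

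The widest spread was that of ASCRP4013159, at mean rank 278. Its signal was 10261, 999 and 10151 units on CTR 1 to 3, 6399, 2824 and 1696 on HFD 1 to 3, and 1715, 555 and 1394 on HFD+Abx 1 to 3. The levels spanned 4.32 log2 units, or 20.0-fold, and its place on an array ranged from 67 to 1068. High values came from CTR 1, CTR 3 and HFD 1, whereas the signals of CTR 2 and HFD 3 lay within the range of the HFD+Abx arrays.

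ASCRP4008180, the third by spread, had nearly the same profile, with 11227, 1293 and 9573 units in CTR, 7123, 3302 and 2106 in HFD, and 1910, 635 and 1329 in HFD+Abx. Over the 9 arrays the levels of the 2 probes correlated at r = 0.995, and ASCRP4000534, at mean rank 145, followed ASCRP4013159 at r = 0.993. These were the highest values among all members compared with ASCRP4013159, and 3 members exceeded r = 0.9 with it. Among all 44850 pairs of members, 1680 had r above 0.9. Whether these probes share a host gene is not known from the files. ASCRP4011284, the second by spread and at mean rank 59, differed from them. It gave 27571, 12330 and 8877 units in CTR, 19337, 13720 and 2307 in HFD, and 5855, 10602 and 21208 in HFD+Abx, so each group held both bright and dim arrays.

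Of the 24 members with a range of 4-fold or more, 21 were highest on CTR 1. The lowest array was HFD 3 for 10 of them, HFD+Abx 2 for 9 and HFD+Abx 3 for 5. They were spread through the list, from mean rank 15 down, with 9 of them at ranks 201 to 300.

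The first comparison asked how the members' levels differ between tumours of the HFD and CTR groups. Levels were nearly the same on average. The median difference over the 300 was 0.01 log2 units, with 158 higher and 142 lower in HFD, and over all 13555 probes tested it was -0.02. The sign of so small a median depended on the scaling, as it was -0.04 with normexp or with equal array medians. It also depended on single arrays, running from -0.12 without CTR 3 to 0.14 without CTR 1. The 2 higher and 1 lower given next were 2 and 2 with normexp, 1 and 1 with equal medians, 2 and 0 with quantile normalisation and 5 and 0 in the authors' table. No member passed an adjusted p of 0.05 in limma (smallest adjusted p = 0.9995), and 0% of all probes tested did. At an unadjusted p under 0.05 there were 3 members (1%), 2 higher and 1 lower, where the share over all probes was 3.72% (3.08% higher and 0.642% lower). The 3 arrays of HFD did not overlap those of CTR for 9 members (3%), 6 higher and 3 lower, where the share over all probes was 9.47% (4.73% higher and 4.74% lower). The members' counts were thus below the background, as were those of the 300 probes ranked next, with 3 (1%) and 11 (3.67%). A difference of 2-fold or more was found for 0 members, against 0.207% of all probes.

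The member with the smallest p among those higher in HFD was ASCRP4010888, at mean rank 184. Its signals were 3824, 2247 and 3749 units in CTR, 4297, 5329 and 4962 in HFD, and 4478, 3187 and 2913 in HFD+Abx. In level, HFD lay above CTR without overlap, at 5.57 ± 0.23 against 4.81 ± 0.40 (SD, n = 3), by 0.76 (SE 0.24, 95% interval 0.23 to 1.28, 1.69-fold, adjusted p = 0.9995 in limma). Among members lower in HFD it was ASCRP4004366, with levels of 6.04, 5.87 and 5.87 in CTR, 5.48, 5.59 and 5.45 in HFD, and 5.87, 5.65 and 5.54 in HFD+Abx. It differed by -0.42 (SE 0.15, 95% interval -0.75 to -0.10, adjusted p = 0.9995 in limma), and the steadiness of its levels made this small difference the one with the smallest p. Neither passed the test.

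For 256 of the 300 (85.3%) the 95% interval of HFD minus CTR, not adjusted for the number of probes, lay within a 2-fold change either way, and the share was 88.3% over all probes tested. The 3 members at an unadjusted p under 0.05 became 17 without CTR 2, 16 of them lower, and 6, 8 and 5 without HFD 1, HFD 3 and HFD+Abx 1. Since no share over all probes is given for these refits, such changes cannot be read as particular to the members. On slide 1 alone there were 2 and with slide as a block 5. With position column as a block there were 0, but HFD 1 is the only HFD array in the column that holds CTR, so that block sets 1 HFD array against CTR and says little about the groups. No member passed the adjusted threshold under these settings.

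The second comparison set HFD+Abx against HFD, groups whose titles differ by Abx. How Abx was given is not stated in the labels. The median difference over the members was -0.05 log2 units, with 118 higher and 182 lower in HFD+Abx, and over all probes tested it was also -0.05. Differences ran from -1.86 to 0.81, and 5 members (1.67%) differed by 2-fold or more, against 1.08% of all probes. No member passed in limma (smallest adjusted p = 0.50), and 0% of all probes did. At an unadjusted p under 0.05 there were 8 members (2.67%), 3 higher and 5 lower, against 9.49% of all probes (3.28% higher and 6.21% lower). The groups did not overlap for 8 members, 1 higher and 7 lower, against 12.9% of all probes (5.29% higher and 7.58% lower).

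The direction of these few depended on the scaling. The 3 higher and 5 lower were 6 and 1 with normexp background correction, 5 and 5 with quantile normalisation or equal array medians, and 13 and 5 in the authors' table, and the median difference was then 0.01 to 0.03. With 1 array left out that median ran from -0.15 without HFD 2 to 0.01 without HFD 1. Without HFD+Abx 1 there were 35 (11 higher and 24 lower), without HFD 2 and HFD 3 there were 19 and 16, and without HFD 1, HFD+Abx 2 and HFD+Abx 3 there were 2, 2 and 4. The share over all probes is not given for these refits, so the changes cannot be read as particular to the members. With slide as a block or on slide 1 alone, where HFD+Abx 1 is set against HFD, there was 1 such member. With position column as a block, where HFD 2 and HFD 3 stand for HFD, there were 2. The interval lay within a 2-fold change either way for 238 members (79.3%), against 83.8% of all probes.

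HFD+Abx was last compared with CTR. This comparison shares arrays with both of the others, so its values stand beside theirs and are not independent of them. The median difference over the members was -0.01 log2 units, with 141 higher and 159 lower in HFD+Abx, and -0.03 over all probes tested. With quantile normalisation or in the authors' table the members' median was 0.11, and with 1 array left out it ran from -0.10 without CTR 3 to 0.09 without CTR 1. Differences ran from -2.56 to 0.84, and 17 members (5.67%) differed by 2-fold or more, against 1.73% of all probes and 12 (4%) of the 300 probes ranked next. No member passed in limma (smallest adjusted p = 0.37), and 0% of all probes did. At an unadjusted p under 0.05 there were 38 members (12.7%), 8 higher and 30 lower, where the share over all probes was 12.6% (4.01% higher and 8.56% lower). The groups did not overlap for 24 members (8%), 6 higher and 18 lower, against 15.5% of all probes (4.95% higher and 10.5% lower). The members' count at an unadjusted p was thus at the background, and their count without overlap was below it. The 300 probes ranked next had 55 (18.3%) and 54 (18%).

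ASCRP4000662, at mean rank 217, had the smallest p among members higher in HFD+Abx. Its levels were 4.25, 4.34 and 4.61 in CTR, 4.85, 5.03 and 4.49 in HFD, and 4.88, 5.54 and 5.29 in HFD+Abx. HFD+Abx lay above CTR without overlap, by 0.84 (SE 0.21, 95% interval 0.36 to 1.31, 1.79-fold, adjusted p = 0.37 in limma). Among members lower in HFD+Abx it was ASCRP4004683, at mean rank 173, with signals of 12906, 4171 and 7352 units in CTR, 5927, 2937 and 4271 in HFD, and 3949, 1486 and 2253 in HFD+Abx. In level, HFD+Abx lay below CTR without overlap, at 4.32 ± 0.71 against 6.01 ± 0.76 (SD, n = 3). The difference was -1.70, with an SE of 0.43, a 95% interval from -2.64 to -0.75 and an adjusted p of 0.37 in limma. For both probes HFD+Abx 1, on slide 1, was closest to CTR among the HFD+Abx arrays. A block for slide makes HFD+Abx 1 the array that is set against CTR, and the differences then were 0.48 and -0.98. All CTR arrays lay in position column 1 and all HFD+Abx arrays in column 2, so column and group cannot be told apart in this comparison except through HFD, which had arrays in both. With position column as a block, which adds HFD 1 minus CTR to HFD+Abx minus HFD 2 and 3, the differences were 0.92 and -1.03. Neither probe passed under either block.

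The 8 higher and 30 lower were 19 and 23 with quantile normalisation and 38 and 28 in the authors' table. With slide as a block or on slide 1 alone there were 0 such members, and with position column as a block, through HFD only, 1. The 38 became 10 without CTR 1, 23 without CTR 3 and 10 without HFD+Abx 2. Shares over all probes are not given for these alternatives, so the changes in count cannot be called particular to the members. The interval lay within a 2-fold change either way for 231 members (77%), against 82.2% of all probes.

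Across the 3 groups, the group means of a member were within 1.5-fold of each other for 258 of the 300 and within 2-fold for 283. No such count was made for the other probes. In HFD vs CTR, HFD+Abx vs HFD and HFD+Abx vs CTR, 0%, 1.67% and 5.67% of members differed by 2-fold or more. The shares over all probes were 0.207%, 1.08% and 1.73%. The median distance between the highest and the lowest group mean was 0.22 log2 units, beside a median SD within groups of 0.33. A mean of 3 arrays varies less than 1 array, so these values do not show how close the groups are. CTR had the highest mean for 110 members (36.7%, against 37.4% of the other tested probes), HFD for 97 (32.3% against 30.1%) and HFD+Abx for 93 (31% against 32.6%). The lowest mean was that of HFD+Abx for 134 members (44.7% against 44.5%), of CTR for 109 (36.3% against 28.9%) and of HFD for 57 (19% against 26.6%). The shares for the highest mean and for HFD+Abx as the lowest were thus near those of the other probes.

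Members were not evenly spread over the array IDs, whose order has no meaning given in the files. In blocks of 1000 consecutive ID numbers, members made up 0.7% to 3.6% of the probes. There were 11 pairs of members with consecutive IDs. Over the 9 arrays the levels of these pairs correlated at r = -0.63 to 0.99 with a median of 0.50, where the median was 0.21 over all 44850 pairs of members and 0.03 over 12922 consecutive pairs of tested probes. The spots of the members lay in rows 1 to 191 and columns 1 to 82 of the array. Their median row was 84, against 96 for the other tested probes, and their median column 42.5 against 41. Whether they were clustered within that span was not tested. The local background beside member spots was 11.5 to 15 units by array, and 11 to 14 beside the other tested spots.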

How the data were processed

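Scanner tables of 9 one-colour (Cy3) arrays were used, 3 per group. Per the file headers, the intensity of each spot was read by the authors with Agilent Feature Extraction (version 11.0.1.1 in the submitters' processing notes). The processed signal is already corrected for background and not normalised between arrays. The authors also deposited log2 values for 14218 circRNA probes. No source used here gives their normalisation, although limma is named in the submitters' processing notes. Columns of that table correlated with log2 median spot signal at 0.998 to 1.00 and had medians of 5.80 to 5.82, so its scale was read from the values and its centring stays unknown. It served as an alternative only.

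Members were chosen on all spots, and 2 of their 2700 spots marked as outliers were left out of levels and fits. Limma 3.58.1 in R 4.3.3 fitted 3 group means over all 9 arrays to 13556 circRNA probes, those that 3 or more arrays marked as well above background, with Benjamini-Hochberg adjustment over all of them. The code was tested on simulated data. Members, tests and the rule for named probes (the 10 highest means, the 2 ranks on either side of the edge, the 3 smallest and 3 largest SDs, and the smallest p each way in HFD vs CTR and in HFD+Abx vs CTR) were chosen with earlier results of these data known. ASCRP4000534 was named after its values were seen. The planned mean spot signal was not in the files, so the median spot signal took its place, as decided after seeing them. The small number of arrays limits the precision. No values were identical between arrays beyond 1 per pair.

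Alternatives were normexp background correction with an offset of 50, quantile normalisation, equal medians, the authors' table, other filters, blocks for slide, position column and replicate number, other list sizes, and leaving out each array. No host gene list could be tested.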

Additional observations from a re-analysis of the deposited data

How the results depend on the processing

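No member passed the adjusted threshold of limma under any alternative, 1 array left out included (0 to 0 in each comparison), except for 2 members in HFD+Abx vs CTR with replicate number as a block (smallest adjusted p = 0.013). Same-numbered arrays do not pair by the labels. Over all tested probes, only 3 of 9 such pairs deviated together at r over 0.1 (r from -0.37 to 0.39). Over the 300 members the same pairs ran from r = -0.79 to 0.81. The r values of these pairs do not rest on the deviations from each probe's mean over the 9 arrays used above. How the levels were centred for them is not given here, so they cannot be set beside the earlier r values. With that replicate block the members at an unadjusted p under 0.05 were 14 in HFD vs CTR and 20 in HFD+Abx vs HFD, against 3 and 8. In the authors' table they were 5, 18 and 66 in HFD vs CTR, HFD+Abx vs HFD and HFD+Abx vs CTR, against 3, 8 and 38. With slide as a block they were 5, 1 and 0, with position column as a block, which is nearly confounded with group, 0, 2 and 1, and on slide 1 alone 1 in HFD+Abx vs HFD and 0 in HFD+Abx vs CTR. Leaving out 1 array gave 2 to 17, 2 to 35 and 10 to 56. The causes were not tested. No share over all probes is given for these alternatives, so their counts cannot be read as an excess or a lack among the members. The share of circRNA signal, 61.9% on average, was 59.2% for median spot signals without background subtraction and 53.6% with normexp, which adds an offset to every probe. It was 43.6% for 100 members and 69.5% for 500. Of these 100 and 500, 69 and 367 were among as many brightest probes on all 9 arrays. The share was 61.5% to 62.2% and that number for 300 members 207 to 218 with 1 array left out. The 4 probes named for their differences kept their direction under every alternative run, but for many of these that was fixed in advance. Their groups did not overlap, so leaving out 1 array could not turn the direction. Other filters and the replicate block left the differences unchanged. Choosing by the authors' table kept all but 1 of the 300. All levels rest on 9 arrays and on a 75th percentile at 95.4 to 121 signal units, far below the members' signals.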
